A study of Homo sapiens with 14 samples.

Results

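Guides against 14 transcription factors of fates outside the heart were followed through a pooled knockout screen of cardiac differentiation. Members were all guides whose target was one of 8 neural factors (PAX6, SOX1, SOX3, NEUROG1, NEUROG2, NEUROD1, OLIG2 and LHX2) or 6 skeletal muscle factors (MYOD1, MYF5, MYF6, MYOG, PAX3 and PAX7). Each factor had 7 guides, which gave 98 member guides, 56 neural and 42 skeletal muscle, of 11364 guides in all against 1633 targets. The library also held 100 control guides. The cells were H9, an established human pluripotent stem cell line, and every group carried the guide library and a Cas9 switched on by doxycycline. Their genotype is otherwise labelled wild type. Cells sorted at day 25 for absence (TNNT2-) or presence (TNNT2+) of cardiac troponin T came from 2D and from 3D cardiomyocyte cultures, with 3 libraries in each of these 4 groups. The fifth group was 2 libraries of undifferentiated cells at day 0. Guides of one gene share a target and are not replicates of a condition. The libraries are replicates. The protocols speak of 3 biological replicates for the sorted cells and do not describe the origin of the day 0 pair, whose spread may be technical. H9 is a single line, and cutting at the targets was not measured in these files.

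The neural factors act at successive steps of neural development. PAX6 and LHX2 pattern the early forebrain and eye, SOX1 and SOX3 are SOXB1 factors that maintain neural progenitors, NEUROG1 and NEUROG2 are proneural basic helix-loop-helix (bHLH) factors that start neuronal differentiation, NEUROD1 acts after them, and OLIG2 specifies motor neurons and oligodendrocytes. In skeletal muscle, the paired-box factors PAX3 and PAX7 mark muscle progenitors and satellite cells, MYF5 and MYOD1 commit cells to myogenesis, and MYOG and MYF6 drive terminal differentiation. Cardiac muscle is formed without these 4 myogenic bHLH factors. The same is not claimed for the paired-box and neural factors, whose roles in the heart were not tested. The set is therefore not read as a reference of targets without a cardiac role. MYF6 and MYF5 are neighbours on chromosome 12, with MYF6 from 80707634 to 80709474 and MYF5 from 80716912 to 80719671, 7438 bases apart (GRCh38.p14, RefSeq). MYOD1 lies on chromosome 11 from 17719571 to 17722136, and PAX6 on the same chromosome from 31789026 to 31817961. The deposited tables name guides by target and number only, so no guide sequence or cut site is given here.

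Library totals ran from 22355936 to 31671019 reads. In each 2D library at most 3 of 98 member guides had fewer than 10 reads. Of the other libraries, 4 were thin. In day 0 replicate 2, 31 of 98 member guides had fewer than 10 reads (31.6%), against 32.5% of all guides. In 3D TNNT2- replicates 2 and 3 these were 12 and 28 members (12.2% and 28.6%, against 11.1% and 27.6% of all guides), and in 3D TNNT2+ replicate 3 they were 46 (46.9%, against 43.6%). The member guides were thus lost at about the rate of the library as a whole. Reads carried no molecular identifiers, so a count of reads is not a count of cells. Errors and intervals below come from the spread between libraries.

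Summed over its 7 guides, a member took between 257 and 1706 CPM, read counts scaled to the same total for every library, and the median over all targeted genes lay between 564 and 595 CPM. Together the 14 genes took 0.787% to 1.05% of the reads. In 3D TNNT2+ replicate 3 the neural factors summed to 4795 CPM and the skeletal muscle factors to 5317 CPM. This was the one library in which the 42 skeletal muscle guides took more reads than the 56 neural guides. How evenly a gene's 7 guides shared its reads differed between libraries. In 2D TNNT2- cells the leading guide of a member carried a median of 28.5%, 30.4% and 28.6% of that gene's reads, and in 2D TNNT2+ cells 28.6%, 31.0% and 28.9%. In the 3 thin 3D libraries the median was 40.3%, 39.7% and 58.2%, and in day 0 replicate 2 it was 46.1%. The most extreme case was OLIG2 in 3D TNNT2+ replicate 3, where 1 guide carried 89.6% of the reads. Over the 1574 genes with 7 guides the same median was 35.6%, 41.7% and 49.2% in the 3 thin 3D libraries. In day 0 replicate 2 it was 42.7%.

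In the 2D sort no member gene was called between TNNT2- and TNNT2+ cells, and the members' estimates lay between -0.28 and 0.20 log2 units. Ratios are TNNT2- over TNNT2+, from limma on log2 of the summed normalized values plus a pseudocount of 10, with Benjamini-Hochberg adjustment over 1633 genes and calls at 0.05. The test called 0 genes in all (0%), and 0 members. At an unadjusted p under 0.05 it held 0 of 14 members, against 66 of 1633 genes (4.04%), and neither edgeR nor DESeq2 called a gene. The 95% intervals of all 14 members lay inside 1 log2 unit on either side of 0, within -0.65 and 0.57. The same held for 98.9% of all genes.

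Among the neural factors, 6 of 8 had a summed ratio above 0 and 2 below, with a median of 0.08 log2 units against -0.02 over all genes. LHX2 had the highest, at 0.20 ± 0.19 (SE), and OLIG2 the lowest, at -0.22 ± 0.18. SOX1 summed to 635, 707 and 820 CPM in TNNT2- cells, against 539, 637 and 675 CPM in TNNT2+ cells. Its 3 same-numbered ratios were 0.17, 0.15 and 0.26, all above 0, but the groups overlap and the summed ratio was 0.19 ± 0.18 with an adjusted p of 0.997 (limma). PAX6, the forebrain and eye regulator, lay at 0.05 ± 0.18. NEUROD1, NEUROG1, NEUROG2 and SOX3 lay between -0.13 and 0.18. Single neural guides split 33 above and 23 below 0, with a median of 0.11, against 50.6% above 0 and a median of 0.01 over all targeted guides. That neural median lay at 0.01, 0.26 and 0.07 by replicate number, and at -0.0048 without 2D TNNT2+ replicate 2.

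Of the skeletal muscle factors, 3 of 6 had a ratio above 0 and 3 below, with a median of -0.0051. MYF6, a factor of terminal muscle differentiation, had the smallest p of the 14 members. It summed to 576, 486 and 662 CPM in TNNT2- cells, against 648, 693 and 701 CPM in TNNT2+ cells. The highest TNNT2- library lay just above the lowest TNNT2+ library, and the ratio was -0.28 ± 0.18 with an unadjusted p of 0.128 and an adjusted p of 0.997 (limma). Its same-numbered ratios were -0.24, -0.51 and -0.11, and 6 of its 7 guides lay below 0. One guide, MYF6_2, stood apart at -1.55 ± 0.73 (SE), with 17.1, 16.3 and 56.2 CPM in TNNT2- and 65.9, 98.7 and 60.0 CPM in TNNT2+ cells. PAX7, the satellite cell factor, summed to 482, 490 and 502 CPM in TNNT2- cells, against 523, 570 and 524 CPM in TNNT2+ cells. It was the 1 member of 14 whose groups did not overlap with TNNT2- lower, against 4.65% of all genes, and 0 members lay apart with TNNT2- higher, against 4.16%. Its same-numbered ratios were -0.18, -0.21 and -0.08. The PAX7 ratio of -0.16 ± 0.19 had an adjusted p of 0.997 (limma). MYOD1, at 0.14 ± 0.18, PAX3, at 0.12 ± 0.19, MYOG, at 0.01 ± 0.19, and MYF5, at -0.02 ± 0.21, covered the rest.

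No member guide was called in the 2D sort, where 0 guides (0%) passed in all with limma and edgeR. DESeq2 called 5 guides of the whole library and no member. Unadjusted p values under 0.05 were found for 2 of 98 member guides, PAX3_7 at 0.85 ± 0.37 and MYF6_2, against 3.34% of all guides. PAX3_7 had 216, 131 and 164 CPM in TNNT2- and 75.7, 107 and 91.7 CPM in TNNT2+ cells. PAX3_7 is shown because of its small p among the 98 member guides, and the median over the 7 PAX3 guides was 0.11.

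The 3D sort was far less precise. In deposited scaling the median over all genes was itself -0.31, and the members' SEs ran from 0.85 to 1.02. With each library scaled to its read total the median was -0.01 and the SEs ran from 0.27 to 0.46. Values on library totals are therefore given beside the deposited ones. The test called 0 genes (0%), and at an unadjusted p under 0.05 it held 0 of 14 members, against 0.98% of all genes. edgeR called 0 genes, and DESeq2 called 2 of 1633 and no member. On library totals too no member passed, with a smallest unadjusted p of 0.0633 and a smallest adjusted p of 0.901 (limma). There, 9 of the 14 intervals lay inside 1 log2 unit on either side of 0. In deposited scaling 0 did, and the same held for 0% of all genes.

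Neural factors lay above 0 in 2 of 8 cases in deposited scaling, with a median of -0.32, and in 3 of 8 on library totals, with a median of -0.03. OLIG2 lay highest of the members on both scales, at 0.49 ± 0.97 and, on library totals, at 0.78 ± 0.39. It summed to 683, 901 and 1079 CPM in TNNT2- cells, against 744, 683 and 257 CPM in TNNT2+ cells. The low value is that of thin TNNT2+ replicate 3, where 4 of the 7 OLIG2 guides had fewer than 10 reads, and the groups overlap. NEUROD1 lay lowest, at -1.05 ± 0.85 and, on library totals, at -0.75 ± 0.46. It summed to 377, 330 and 265 CPM in TNNT2- cells, against 686, 642 and 358 CPM in TNNT2+ cells, with the highest TNNT2- library just above the lowest TNNT2+ library. Its same-numbered ratios were -0.99, -0.53 and -1.62, each below the median over all genes of that pair (-0.13, 0.38 and -1.18). The last 2 pairs contain thin libraries. In TNNT2- replicates 2 and 3, 2 and 3 of the 7 NEUROD1 guides had fewer than 10 reads, and in TNNT2+ replicate 3 it was 5. With the replicate block the value was -1.05 ± 0.62 with an adjusted p of 0.987 (limma). Its guides disagreed, since 4 of 7 lay above 0 and the median of the 7 was 1.32, and NEUROD1_4 alone gave 293 CPM in TNNT2+ replicate 1. SOX1, SOX3, NEUROG1, NEUROG2 and LHX2 lay between -0.61 and -0.06 in deposited scaling, and on library totals between -0.31 and 0.24. PAX6 lay at 0.19 ± 0.96 and at 0.49 ± 0.33 on library totals.

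Skeletal muscle factors lay above 0 in 1 of 6 cases in deposited scaling and in 3 of 6 on library totals, with medians of -0.27 and 0.03. Without thin 3D TNNT2+ replicate 3, 13 of the 14 neural and muscle members lay above 0 in deposited scaling, NEUROD1 being the exception at -0.60, and the median over all genes was 0.40. MYOD1 then lay at 0.29, MYF5 at 1.002 and PAX3 at 1.04. With all libraries MYOD1 lay at -0.66 ± 0.96, and on library totals at -0.37 ± 0.32. It summed to 679, 420 and 623 CPM in TNNT2- cells, against 609, 646 and 969 CPM in TNNT2+ cells, and the groups overlap. PAX3 had 0.42 ± 0.38 on library totals and was the only one of the 6 above 0 in deposited scaling. MYF6 had -0.20 ± 0.37 on library totals. In TNNT2+ replicate 3 it summed to 968 CPM, and its guide MYF6_6 gave 778 CPM of these while 5 of the 7 guides had fewer than 10 reads. The other 3 factors, MYF5, MYOG and PAX7, lay between -0.02 and 0.14 on library totals.

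At the guide level the 3D sort called 0 guides (0%) and no member. One member guide of 98 had an unadjusted p under 0.05, LHX2_2 at -5.46 ± 2.75, against 1.29% of all guides. It had 61.5, 0.169 and 0.158 CPM in TNNT2- and 64.2, 81.6 and 225 CPM in TNNT2+ cells, so the difference rests on the near absence of its reads in thin TNNT2- replicates 2 and 3. The median of the neural guides was 0.58, with 36 above and 20 below 0, against -0.13 over all targeted guides and 0.09 over control guides. Without 3D TNNT2+ replicate 3 it was -0.09, and without the 3 thin libraries -0.05. Skeletal muscle guides had a median of -0.08, which was 0.44 without 3D TNNT2+ replicate 3 and 0.33 without the 3 thin libraries. In deposited scaling neither sign held without the thin libraries, but the library as a whole moved too. The median over all genes went from -0.31 to 0.40 without 3D TNNT2+ replicate 3. A median over all guides is not given for these fits, so the shifts are not read as results about the members. Groups not overlapping were found for 0 of 14 members, with TNNT2- higher or lower, against 4.41% and 4.16% of genes.

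The sort ratios of both systems were compared directly by an interaction, 3D minus 2D, on recovered reads scaled together. It called 0 genes (0%), and at an unadjusted p under 0.05 there were 0 of 14 members, against 0.919% of genes. NEUROD1 lay lowest at -0.99 ± 0.49, with an unadjusted p of 0.0593 and an adjusted p of 0.997 (limma). OLIG2 lay highest at 0.85 ± 0.53, with an unadjusted p of 0.124 and the same adjusted p. On library totals they lay at -0.87 ± 0.47 and 0.98 ± 0.49, with an adjusted p of 0.879 for both (limma). Both values contain the thin libraries described above. None of the 14 intervals lay inside 1 log2 unit on either side of 0, against 0.122% of all genes. On library totals 3 did, so most intervals held a 2-fold difference between systems in at least 1 direction.

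Day 25 cells of the 2D cultures, both fractions averaged by replicate number, were set against day 0. The average weights both fractions equally and not by their share of the culture. Each day 25 value averages 2 libraries, while each day 0 value is a single library. No member passed, and those with the smallest p lay lower at day 25. In deposited scaling 13 of 14 members lay below 0, but the median over all genes was also -0.40, and on library totals, where that median was 0.03, 10 of 14 lay below 0. With each gene taken as the mean of its guides' log2 values the tally turned, with 12 of 14 members above 0 and 2 below, beside a median of 0.81 over all genes. The test called 0 genes (0%). Unadjusted, 2 members had p under 0.05, SOX3 and PAX7, against 5.02% of genes in either direction. Both lay lower at day 25, against 4.29% of genes lower at that p. On library totals the test held 3, SOX3, SOX1 and PAX7, all lower, against 7.35% of genes in either direction and 3% lower. The adjusted p was 0.543 for each of these 3 (limma). Neither edgeR nor DESeq2 called a member gene, while DESeq2 called 33 genes and edgeR 0.

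SOX3, a neural progenitor factor on the X chromosome, summed to 658, 545 and 656 CPM in 2D TNNT2- and 630, 444 and 547 CPM in 2D TNNT2+ cells, against 770 and 853 CPM at day 0. All 6 day 25 libraries lay below both day 0 libraries. Its value was -0.92 ± 0.38 in deposited scaling, with an unadjusted p of 0.0393 and an adjusted p of 0.523 (limma), and -0.49 ± 0.19 on library totals. It was -1.42 without day 0 replicate 1 and -0.41 without day 0 replicate 2. Its guides differed among themselves. At day 0 the reads were concentrated, with SOX3_5 at 360 and 106 CPM and SOX3_6 at 153 and 536 CPM, while 3 of the 7 guides had fewer than 10 reads in day 0 replicate 2. On the log2 scale 4 of 7 guides lay above 0, with a median of 2.54.

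PAX7 summed to 482, 490 and 502 CPM in 2D TNNT2- and 523, 570 and 524 CPM in 2D TNNT2+ cells, against 597.5 and 1061 CPM at day 0. Again no day 25 library reached a day 0 library, and the value was -1.05 ± 0.47, or -0.63 ± 0.26 on library totals. It was -1.90 without day 0 replicate 1 and -0.20 without day 0 replicate 2. These 2 of 14 members had groups that did not overlap with day 25 lower, against 6.18% of genes, and 0 had day 25 higher, against 5.82%. SOX1 lay at -1.19 ± 0.55, or -0.77 ± 0.31 on library totals. Its day 25 sums, between 539 and 820 CPM, overlapped the 754 CPM of day 0 replicate 1 and lay far below the 1706 CPM of thin day 0 replicate 2. There SOX1_1 and SOX1_4 gave 737 and 672 CPM. The SOX1 value was -2.22 without day 0 replicate 1 and -0.17 without day 0 replicate 2. NEUROG1 and NEUROG2 had -0.64 ± 0.30 and -0.86 ± 0.43, and the other 9 members lay between -0.73 and 0.00093. PAX6 and PAX3 had 0.00093 ± 0.30 and -0.02 ± 0.30 in deposited scaling, and 0.43 ± 0.27 and 0.41 ± 0.36 on library totals, the highest of the 14. Both had fewer reads in day 0 replicate 2 than in replicate 1, with 388 against 740 CPM for PAX6 and 282 against 702 CPM for PAX3.

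No guide was called in this comparison (0%) with limma or edgeR. DESeq2 called 190 of the 11364 guides and 4 of the 98 member guides, and the difference between these shares was not tested. With limma, unadjusted p values under 0.05 were found for 5 of 98 member guides, all lower at day 25. Over all guides the shares were 6.44% in either direction and 3.97% lower. The 5 member guides were SOX1_4 at -2.48 ± 0.76, PAX7_1 at -2.23 ± 0.77, SOX3_6 at -1.96 ± 0.68, MYOG_7 at -1.56 ± 0.63 and NEUROG1_1 at -1.47 ± 0.59. The 4 that DESeq2 called were SOX1_4, PAX7_1, SOX3_6 and NEUROG1_1, with adjusted p of 0.0122, 0.0367, 0.0423 and 0.0495. SOX1_4 had 58.1, 96.0 and 107 CPM in TNNT2- and 42.4, 82.7 and 86.9 CPM in TNNT2+ cells, against 148 and 672 CPM at day 0. Every day 25 library lay below both day 0 libraries, but these differed from each other more than the lower of them did from day 25. PAX7_1 had 28.6, 46.7 and 81.1 CPM in TNNT2- and 46.5, 27.9 and 74.99 CPM in TNNT2+ cells, against 117 and 245 CPM at day 0. In deposited scaling the median over all genes was -0.81 without day 0 replicate 1 and 0.0085 without day 0 replicate 2. Without day 0 replicate 1 limma called most member genes, and also most genes of the library. In both fits day 0 is 1 library, assumed to vary like the day 25 samples. The fits compare day 25 with that library and not with day 0 as a group, and their calls are not read as results about the members.

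In 3D, day 25 cells gave no member call either. The test called 1 gene, ZBTB20 (0.0612%), which is no member and is named only because it was the single call. At an unadjusted p under 0.05 it held 0 of 14 members, against 0.49% of genes, and edgeR and DESeq2 called no member. Members lay above 0 in 8 of 14 cases in deposited scaling, where the median over all genes was 0.12. On library totals they did so in 4 of 14 cases, with the same median at 0.0061. Without 3D TNNT2+ replicate 3, in deposited scaling, 2 of 14 lay above 0, with that median at -0.14, and with means of log2 values over guides 11 of 14 did, with it at 0.70. PAX3 had the smallest p of the members in deposited scaling, at 0.41 ± 0.98, with an unadjusted p of 0.675 and an adjusted p of 0.9995 (limma). It summed to 473, 533 and 1022 CPM in 3D TNNT2- and 444, 404 and 598 CPM in 3D TNNT2+ cells, against 702 and 282 CPM at day 0. Of the day 25 values 5 lay between the day 0 values and 1 above them, and the groups overlap. NEUROG2 lay lowest on both scales, at -0.40 ± 1.11 and, on library totals, at -0.51 ± 0.27. It had 800, 513 and 646 CPM in TNNT2- and 439, 613 and 604 CPM in TNNT2+ cells, against 722 and 1015 CPM at day 0.

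SOX3 and PAX7, the members set apart from day 0 in 2D, overlapped with it in 3D. SOX3 summed to 553, 601 and 701 CPM in 3D TNNT2- and 577, 643 and 1195 CPM in 3D TNNT2+ cells, with a value of -0.05 ± 1.13, or -0.23 ± 0.28 on library totals. Its 1195 CPM came from thin TNNT2+ replicate 3, where SOX3_6 gave 698 CPM, and the other 5 libraries lay below both day 0 libraries. PAX7 summed to 565, 566 and 869 CPM in TNNT2- and 414, 672 and 850 CPM in TNNT2+ cells, and had -0.20 ± 1.11, or -0.32 ± 0.32 on library totals. Both day 25 comparisons use the same day 0 libraries. No member lay apart from day 0, higher or lower, against 3% and 3.31% of genes.

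One guide was called in the 3D day 25 comparison (0.00882%), NR6A1_7, which is no member. At an unadjusted p under 0.05 there were 3 of 98 member guides, all higher at day 25. Over all guides the shares were 4.64% in either direction and 4.45% higher. SOX1_6 stood first at 5.07 ± 1.60, with an unadjusted p of 0.00147 and an adjusted p of 0.695 (limma). It had 230, 529 and 291 CPM in 3D TNNT2- and 53.9, 120 and 224 CPM in 3D TNNT2+ cells, against 65.8 and 0.473 CPM at day 0. In 5 of the 6 libraries it lay above both day 0 values. In 2D the same guide gave 45.8, 96.9 and 92.3 CPM in TNNT2- and 12.5, 60.4 and 46.1 CPM in TNNT2+ cells. LHX2_5 and PAX3_7 followed at 3.97 ± 1.57 and 3.74 ± 1.79, and both had almost no reads in day 0 replicate 2, at 0.473 and 0.315 CPM, against 174 and 168 CPM in replicate 1. The median over neural guides was 0.05 and that over skeletal muscle guides 0.58, against 0.41 over all targeted guides. Leaving out 1 library at a time moved the neural median over -0.41 to 0.33 and the muscle median over -0.24 to 0.52, with the lowest muscle value without 3D TNNT2+ replicate 3.

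Wider lists of lineage factors gave no call either. Of 40 further neural genes, 17 lay above 0 in the 2D sort and 12 in the 3D sort, with medians of -0.05 and -0.33, against -0.02 and -0.31 over all genes. Of 19 further skeletal muscle and somite genes, 10 and 5 lay above 0, with medians of 0.0022 and -0.26. On library totals, 20 of the 40 neural and 11 of the 19 muscle and somite genes lay above 0 in 3D. None of these 59 genes passed in either sort. OLIG3, a relative of OLIG2, had the smallest p of the neural list in 3D, at -1.51 ± 0.83 with an adjusted p of 0.9996 (limma). From the muscle list the genes with the smallest p were MSGN1, a presomitic mesoderm factor, at 0.35 ± 0.18 in 2D, and MKX, a tendon factor, at -0.59 ± 0.83 in 3D. Day 25 against day 0 gave no call in either list, with medians in 2D of -0.31 for the neural and -0.40 for the muscle list, against -0.40 over all genes. On library totals these 2D medians were 0.12 and 0.03, with 24 of 40 neural and 10 of 19 muscle and somite genes above 0.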

How the data were processed

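Guide cassettes were amplified from genomic DNA and sequenced, per the labels' protocols. The authors deposited 2 tables, for 2D and 3D, with a normalized signal per guide. Each value is a read count divided by 1 factor per library, and every value was a whole multiple of its column's smallest (largest deviation 1.38e-10), so reads were recovered. The submitters' processing notes name MAGeCK and hg38 without a version or a normalization. Members and gene lists were chosen with earlier results of these data known.

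The main test was limma's moderated test (limma 3.58.1, trend fitted) on log2(value + 10), over guides with a mean value of at least 10 and over genes as the sum of their guides. All 98 member guides passed this filter. Fold changes are on this pseudocount scale. CPM came from recovered reads. Because each table has its own scaling, the comparison between systems used recovered reads put on one scale with median-ratio factors. edgeR (version 4.0.16) and DESeq2 (version 1.42.0) on recovered reads were alternatives, with the reads of both fractions added for day 25. The scripts were tested on simulated reads. All 14 members are named. Of the wider lists, the gene with the smallest p in each sort is named, except for 1 that is not reported here, and 3 listed genes had no guides.

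The protocols say that 3 differentiations were sorted into both fractions, which was read as pairing same-numbered fractions. Residuals of such pairs correlated at 0.0767, 0.108 and 0.126 in 2D and at 0.109, 0.0560 and 0.0735 in 3D, while other pairs lay between -0.0781 and 0.0268. The sort tests have no replicate block, so their SEs, intervals and p values come from an unpaired fit. With the block no member gene changed sign or passed in either sort. GRCh38.p14 gene positions are from RefSeq.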

Additional observations from a re-analysis of the deposited data

How the results depend on the processing

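No member gene passed in either sort or in the difference between systems under any alternative tried. Of 1428 alternative fits of member genes 249 changed sign and 19 passed, all of these in 2D day 25 without day 0 replicate 1, in deposited scaling or on library totals. In the 2D sort DESeq2 called 5 guides, and leaving out 1 library at a time gave 0 to 2 genes. In the 3D sort guides called were 4 on library totals, also without TNNT2- replicate 2 or 3, 1 with control-guide scaling, 8 with DESeq2 and 1 with the replicate block on library totals. Genes called were 2 with DESeq2 and 1 on library totals without the 3 thin libraries. The 3D neural guide median was -0.047 without the 3 thin libraries and ran from -0.090 to 0.95 without single libraries. On library totals it was 0.071 without the 3 thin libraries, 0.87 without TNNT2- replicate 3 and -0.55 without TNNT2+ replicate 3. The muscle median was 0.33 without the 3 thin libraries and ran from -0.35 to 0.44 without single libraries. On library totals it was 0.45 without the 3, 0.17 without TNNT2- replicate 2 and 0.46 without TNNT2- replicate 3. The replicate block changed no member call. In the day 25 comparisons the block also tied day 0 libraries to day 25 samples by number, a pairing that the protocols do not describe. In 2D day 25 it gave 1 gene and 17 guides, and in 3D day 25 it gave 0 genes. It changed the sign of 0 of 14 members in 2D day 25 and of 8 of 14 in 3D day 25.

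In 2D day 25 the guide medians in deposited scaling were -0.09 for neural, -0.11 for muscle and 0.09 for all targeted guides. The neural median was 0.34 on library totals, 0.12 with control-guide scaling and 0.063 with edgeR, and the muscle median was 0.31 on library totals. A median over all guides is not given for these alternatives, so the shifts are not read as gains of member guides. DESeq2 called 33 of 1633 genes, 190 of 11364 guides and 4 of 98 member guides. Mean log2 values over guides turned the sign of 11 of 14 members, none of them passing. Leaving out 1 library at a time gave 0 to 1261 genes, 0 to 11 member genes, 0 to 8458 guides and 0 to 72 member guides, highest without day 0 replicate 1. A lone day 0 library was assumed to vary like the day 25 samples. On library totals without day 0 replicate 1, 714 genes, 8 member genes, 6736 guides and 62 member guides passed, the neural and muscle medians were 0.67 and 0.76, LHX2 turned to 0.62 and PAX3 to 1.07. Without day 0 replicate 2, 3 genes, 126 guides and 1 member guide passed, and on library totals 1 gene, 115 guides and 1 member guide. The cause was not tested.

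In 3D day 25 guides called were 0 with a pseudocount of 100, 14 on library totals, 5 with control-guide scaling, 0 with edgeR, 17 with DESeq2, 2 with TNNT2- libraries only, 0 with TNNT2+ libraries only and 0 without the 3 thin 3D libraries. Genes called were 0 on library totals, with edgeR, from mean log2 values over guides and without the 3 thin libraries, 13 with DESeq2 and 2 with TNNT2- libraries only. Leaving out 1 library gave 0 to 6 genes, 0 to 1266 guides and 0 to 4 member guides, highest without day 0 replicate 1. On library totals without it, 101 genes, 2559 guides and 14 member guides passed, and without day 0 replicate 2 there were 0 genes and 0 guides, with a muscle median of -0.38. On library totals without TNNT2- replicate 2, TNNT2- replicate 3 or TNNT2+ replicate 3, guides called were 28, 9 and 26, genes 0 without either TNNT2- library, and the neural median -0.68 without TNNT2- replicate 3. In the difference between systems the neural and muscle medians were -0.18 and 0.37 without the 3 thin libraries, and ran from -0.43 to 0.86 and from -0.12 to 0.35 without single libraries. The alternatives that leave out thin libraries or use library totals for such fits were chosen after seeing the data.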
